A study of Mus musculus with 12 samples.

Results

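The nuclear-encoded subunits of the respiratory chain and of ATP synthase were followed by complex, I to V, through kidney cortex RNA-seq of mice with unilateral ureteral obstruction (UUO), an operation that ties off the ureter of a single kidney and leads to tubular injury and fibrosis. Members were all genes whose symbols begin with Nduf followed by a, b, c, s or v and a number, with Sdha to Sdhd, and with Uqcr, Cox4 to Cox8 or Atp5, at a level of at least 1 FPKM in at least 3 of the 12 libraries. FPKM is a count of sequenced fragments corrected for transcript length and for sequencing depth, so that levels can be set side by side between genes. Of 23183 gene symbols, 84 matched by name and 81 reached the level, which gave 37 members in complex I, 4 in complex II, 8 in complex III, 15 in complex IV and 17 in complex V. Just inside the threshold lay Cox4i2, with 4 libraries at or above 1 FPKM, and Cox6a2, with 6. Just outside it lay Cox8b, with 2 such libraries, whereas Cox7b2 and Cox8c had none. The symbols were taken as written, and 3 members are not structural subunits: Atp5s and Atp5sl, which are related to ATP synthase by name, and Cox7a2l, a factor that helps join complexes III and IV into supercomplexes. Ndufa4 was counted with complex I by its symbol, although its protein is now placed in complex IV. None of the 13 subunits encoded by the mitochondrial genome was analysed here.

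The mice were male C57BL/6N animals of 6 to 7 weeks, either WT or Acot12-/-, a global germline knockout of the peroxisomal and cytosolic acetyl-CoA thioesterase Acot12 made with an RNA-guided nuclease. From each genotype there were 3 libraries of the obstructed kidney (UUO), taken 7 days after the ligation, and 3 of the contralateral kidney (CL), whose ureter was not tied, so that every CL kidney came from an operated mouse. The 4 groups are named by genotype and kidney, from WT CL to Acot12-/- UUO. The labels do not say that the libraries of a group came from separate mice, so the p-values measure only the spread between these libraries, which may be partly technical.

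Complexes I and II take electrons from NADH and succinate and pass them through ubiquinone to complex III, which hands them by cytochrome c to complex IV and oxygen. Complexes I, III and IV pump protons, and complex V uses the gradient to make ATP. Among kidney cells the proximal tubule, whose transport work is fuelled largely by fatty acid oxidation, is known to be especially rich in mitochondria. Because the RNA came from whole cortex, fewer cells of a type and less RNA per cell cannot be told apart in any of the differences below.

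The targeted gene was read first. Acot12 was at 73.8, 52.7 and 78.1 FPKM in WT CL and at 9.14, 9.01 and 6.80 in Acot12-/- CL, and it fell by 2.88 on the log2 scale between them (SE 0.28, limma, adjusted p = 0.000969). With UUO it was at 9.98, 16.7 and 21.2 FPKM in WT (adjusted p = 0.000108) and 3.28, 1.80 and 3.86 in Acot12-/- (adjusted p = 0.0022), so the targeted gene fell with obstruction as well. The CL libraries held about 11100000 to 14600000 fragments and the UUO libraries about 16500000 to 20300000, estimated from the steps between low values, so that 1 fragment per kilobase was worth 0.0685 to 0.0905 FPKM in CL and 0.0493 to 0.0607 FPKM in UUO. Within Acot12-/- CL, replicate 2 stood apart from replicates 1 and 3: correlations between replicates across genes were 0.942 to 0.984 in this group, against 0.974 to 0.992 in the other groups. In that library the members had a median difference of -0.52 from replicates 1 and 3 on the log2 scale, with 64 of 81 members lower, whereas the median over all genes tested was -0.01. The replicate 2 library of WT CL held traces of fat-cell RNA, with Adipoq at 1.62 FPKM and Ucp1 at 1.09 FPKM, although none of 7 fat-cell markers reached the level to be tested. Values without these libraries are given beside the results they change.

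In the unobstructed WT cortex these genes were among the abundant ones. The members together took 8.28 to 11.4% of all FPKM in the CL libraries of both genotypes and 4.30 to 5.83% in the UUO libraries. All FPKM here includes Kap, a gene left out of the tests. Kap was listed at 0 in WT CL replicates 1 and 3 and in Acot12-/- CL replicate 3. In the other CL libraries it was at 101309 to 189588 FPKM, and in UUO at 5148 to 34476.5 FPKM, which lowers the members' share there. The median group mean in WT CL was 533 FPKM for complex I, 403 for complex II, 1759 for complex III, 1565 for complex IV and 1017 for complex V, and in WT UUO it was 171, 135, 426, 357 and 377 FPKM. In Acot12-/- the same medians went from 474, 511, 1625, 1216 and 1167 FPKM in CL to 199, 149.9, 552, 458 and 422 FPKM in UUO. The mixture of complexes moved little beside this, since complex I supplied 29.3 to 30.7% of the members' summed FPKM in CL and 30.7 to 31.0% in UUO over the single libraries of both genotypes, and complex V 29.7 to 31.1% and 27.6 to 29.8%.

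The first comparison asked what obstruction did in WT kidneys. All 5 complexes were lower after 7 days. Of 81 members, 75 were called lower and 0 higher, where called means an adjusted p under 0.05 in limma on log2(FPKM + 1), adjusted over all 13243 genes tested. Over all genes tested, 47.5% were called, 23.9% lower and 23.6% higher, and at an unadjusted p under 0.05 it was 77 members against 54.4% of all genes. The members called lower were 35 of 37 in complex I, 4 of 4 in complex II, 8 of 8 in complex III, 11 of 15 in complex IV and 17 of 17 in complex V. The median member fell by 1.62 on the log2 scale, a 3.08-fold fall, while the median of all genes tested was 0.01. In 77 of 81 members the WT UUO libraries were all below the WT CL libraries, against 35.8% of all genes tested, and 71 members were called lower and at least 2-fold lower, against 11.2%. The 6 members that were not called were Ndufa4l2, Ndufs7, Cox4i1, Cox4i2, Cox6a2 and Cox6b2.

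**Figure D1:**
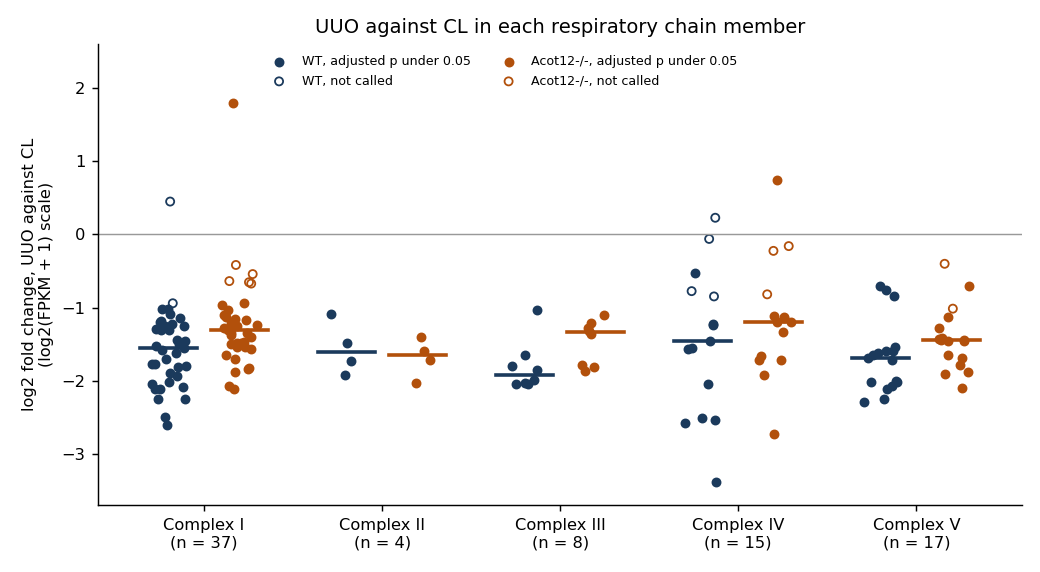
Log2 fold change on the log2(FPKM + 1) scale of each of the 81 members in UUO against CL, by complex, with WT and Acot12-/- side by side. Most points lie below 0, with medians in WT from -1.45 in complex IV to -1.92 in complex III, and the widest spread in WT is in complex IV, from Cox7a1 at -3.39 to Cox6b2 at 0.23.

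The deposited values sum to a larger total in CL than in UUO libraries, and this scaling matters for the size of the fall. When every library was scaled to the same total FPKM, the median of all genes tested moved to 0.52, and calls over all genes went from 50.3% lower to 15.9% lower. The members were then 65 called lower and 2 higher, Ndufa4l2 and Cox6b2, with 9.65% of all genes tested lower and 50.9% higher. The median member fell by 1.01 on the log2 scale under this scaling in WT and fell by 0.88 in Acot12-/-. Relative to the median of all genes, the median member in WT was at -1.63 on the log2 scale as deposited and at -1.53 after this scaling.

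Complex I oxidises NADH. Ndufs1, the large iron-sulfur core subunit (chr1:63143596-63176833, GRCm38, minus strand), was at 157, 129.7 and 156 FPKM in WT CL (mean 147 ± 15.4) and 35.1, 36.5 and 45.7 in WT UUO (39.1 ± 5.75). Ndufs1 in Acot12-/- was at 171, 180.1 and 149 in CL (167 ± 15.9) and 47.7, 27.6 and 44.0 in UUO (39.8 ± 10.7), where errors here and below are SD with n = 3. No UUO library reached the lowest CL library in either genotype, and Ndufs1 fell by 1.89 on the log2 scale in WT (SE 0.20, adjusted p = 3.15e-05) and fell by 2.07 in Acot12-/- (SE 0.20, adjusted p = 9.02e-06). Ndufv1, which binds NADH and the flavin, was at 242, 237 and 273 FPKM in WT CL (mean 251 ± 19.6) and 95.4, 103 and 123 in WT UUO (107 ± 14.1). Ndufv1 in Acot12-/- was at 338, 136 and 352 in CL (275 ± 121) and 130.1, 82.4 and 141 in UUO (118 ± 31.2). The WT groups were separate, but Acot12-/- CL replicate 2, at 136 FPKM, lay inside the Acot12-/- UUO range, and Ndufv1 fell by 1.23 on the log2 scale in WT (SE 0.32, adjusted p = 0.0084) and fell by 1.13 in Acot12-/- (SE 0.32, adjusted p = 0.0108). Without Acot12-/- CL replicate 2 Ndufv1 fell by 1.58 in Acot12-/-, and without UUO replicate 2 its adjusted p there was 0.0521. After scaling to the same total FPKM it was at -0.61 in WT, with adjusted p = 0.0576. Ndufb11, an accessory subunit of the membrane arm (chrX:20615326-20617619, minus strand), was at 781, 765 and 889 FPKM in the WT CL libraries, with a mean of 812 ± 67.6, and at 113, 124 and 165 after UUO, with a mean of 134 ± 27.8. Ndufb11 in Acot12-/- mice reached 475, 446 and 858 in CL (593 ± 230.2) and 192, 126 and 242 in UUO (187 ± 58.1). It was separate in both genotypes and had the deepest fall of complex I in WT: it fell by 2.61 on the log2 scale with UUO in WT (SE 0.29, adjusted p = 3.52e-05) and fell by 1.65 in Acot12-/- (SE 0.29, adjusted p = 0.000455).

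In WT, 36 of 37 members of complex I had a fold change below 0. Falls in WT among those called ran from -1.02 for Ndufa8 to -2.61 for Ndufb11. The 7 core subunits had a median of -1.52 in WT and -1.30 in Acot12-/-, with 6 called lower in each genotype, and the 28 accessory subunits, without Ndufa4 and Ndufa4l2, had medians of -1.57 and -1.32. Ndufs7, the core member that missed the threshold, was among the lowest in Acot12-/- CL replicate 2, at -1.77 against replicates 1 and 3. Ndufa4 (chr6:11900292-11907497, minus strand) was the most abundant member of complex I. It was at 5062, 5284 and 5088 FPKM in WT CL (mean 5145 ± 121) and 801, 916 and 1046 in WT UUO (921 ± 123). Ndufa4 in Acot12-/- was at 3327, 4247 and 5412 in CL (4329 ± 1045) and 1219, 835 and 1503 in UUO (1186 ± 336). Its UUO libraries were all below its CL libraries, and Ndufa4 fell by 2.49 on the log2 scale in WT (SE 0.25, adjusted p = 1.91e-05) and fell by 1.88 in Acot12-/- (SE 0.25, adjusted p = 5.84e-05).

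Ndufa4l2 (chr10:127514967-127517154, plus strand), a paralogue of Ndufa4 known to be induced by hypoxia, was an exception in direction. It was at 5.19, 4.23 and 7.53 FPKM in the WT CL libraries, with a mean of 5.65 ± 1.70, and at 7.68, 6.07 and 10.5 after UUO, with a mean of 8.06 ± 2.22. Ndufa4l2 in Acot12-/- mice reached 2.28, 0.806 and 2.70 in CL (1.93 ± 0.996) and 5.82, 9.96 and 11.2 in UUO (9.01 ± 2.84). In WT the UUO and CL libraries overlapped and the difference was 0.45 (SE 0.31, adjusted p = 0.249) on the log2 scale. In Acot12-/- every UUO library was above every CL library and it rose by 1.79 (SE 0.31, adjusted p = 0.00041). It was the only member of which this was so, against 27.8% of all genes tested. The 3 Acot12-/- CL libraries were also the lowest of all 12, which is taken up with the genotypes below.

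Complex II, succinate dehydrogenase, is made entirely from nuclear genes and also serves the citric acid cycle. Sdha, the flavoprotein that oxidises succinate, was at 356, 341 and 361 FPKM in WT CL (mean 353 ± 10.5) and 120.0, 118 and 139.9 in WT UUO (126 ± 12.2). Sdha in Acot12-/- was at 413, 386 and 388 in CL (396 ± 14.9) and 142, 103 and 153 in UUO (133 ± 26.5). All 6 UUO libraries were below all 6 CL libraries, and Sdha fell by 1.48 on the log2 scale in WT (SE 0.17, adjusted p = 4.13e-05) and fell by 1.59 in Acot12-/- (SE 0.17, adjusted p = 1.46e-05). Sdhb, the iron-sulfur subunit (chr4:140961203-140979193, plus strand), was at 509, 493 and 604 FPKM in the WT CL libraries, with a mean of 536 ± 60.3, and at 112, 133 and 186 after UUO, with a mean of 144 ± 38.1. Sdhb in Acot12-/- mice reached 688, 487 and 793 in CL (656 ± 155) and 193, 104 and 193 in UUO (163 ± 51.7). It too was separate in both genotypes and had the deepest fall of the complex, since it fell by 1.91 on the log2 scale with UUO in WT (SE 0.28, adjusted p = 0.000197) and fell by 2.03 in Acot12-/- (SE 0.28, adjusted p = 8.50e-05). Sdhc, a membrane anchor, was at 396, 423 and 415 FPKM in WT CL (mean 411 ± 14.1) and 174, 181 and 226 in WT UUO (194 ± 28.5). Sdhc in Acot12-/- was at 613, 447 and 674 in CL (578 ± 117) and 237, 162 and 259 in UUO (219 ± 50.8). Its libraries did not overlap within a genotype either, and Sdhc fell by 1.09 on the log2 scale in WT (SE 0.21, adjusted p = 0.00142) and fell by 1.40 in Acot12-/- (SE 0.21, adjusted p = 0.000183), the smallest fall of complex II. The medians of the 4 members were -1.60 in WT and -1.65 in Acot12-/-.

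Complex III passes electrons from ubiquinol to cytochrome c, and all 8 members were called lower in both genotypes. Uqcrfs1, the Rieske iron-sulfur protein (chr13:30540308-30545362, minus strand), was at 559.7, 568 and 574 FPKM in the WT CL libraries, with a mean of 567 ± 7.33, and at 119.6, 127 and 173 after UUO, with a mean of 139.9 ± 28.9. Uqcrfs1 in Acot12-/- mice reached 590.5, 530.4 and 664 in CL (595 ± 66.7) and 197, 112 and 194 in UUO (168 ± 47.9). Its libraries were separate, and it fell by 2.03 on the log2 scale with UUO in WT (SE 0.23, adjusted p = 3.82e-05) and fell by 1.86 in Acot12-/- (SE 0.23, adjusted p = 3.61e-05). Uqcrc1, a core protein facing the matrix, was at 258, 258 and 323 FPKM in WT CL (mean 279.8 ± 37.6) and 119, 128 and 162 in WT UUO (136 ± 22.3). Uqcrc1 in Acot12-/- was at 486, 164 and 490.0 in CL (380.2 ± 187) and 172, 106 and 173 in UUO (150.4 ± 38.5). It showed the smallest fall of the complex in WT: Uqcrc1 fell by 1.04 on the log2 scale in WT (SE 0.37, adjusted p = 0.0345) and fell by 1.21 in Acot12-/- (SE 0.37, adjusted p = 0.0148). In Acot12-/- its CL replicate 2, at 164 FPKM, lay below 2 of the UUO libraries, and without it Uqcrc1 fell by 1.73. Its calls were held in 13 of 20 alternatives in WT and 15 of 20 in Acot12-/-. The WT call was lost without any of the 3 WT CL libraries or WT UUO replicate 1 or 2, with adjusted p from 0.0611 to 0.106, and the Acot12-/- call without CL replicate 1 or 3 or UUO replicate 2, with 0.058 to 0.0663. After scaling to the same total FPKM the adjusted p in WT was 0.244. Uqcr10 and Uqcr11 are small subunits that were also, in that order, the most abundant of complex III in WT and the deepest falling there. Uqcr10 was at 2337, 2662 and 2039 FPKM in WT CL (mean 2346 ± 311) and 550.4, 683 and 726 in WT UUO (653 ± 91.5). Uqcr10 in Acot12-/- was at 1832, 1038 and 2236 in CL (1702 ± 609.6) and 762, 535 and 1051 in UUO (783 ± 258). Uqcr10 fell by 1.84 on the log2 scale with UUO in WT (SE 0.30, adjusted p = 0.000427) and fell by 1.10 in Acot12-/- (SE 0.30, adjusted p = 0.0087). Uqcr11 was at 1599.8, 2029 and 1688 FPKM in the WT CL libraries, with a mean of 1772 ± 227, and at 369, 471 and 446 after UUO, with a mean of 429 ± 52.9. Uqcr11 in Acot12-/- mice reached 1760.3, 671 and 2211 in CL (1548 ± 792) and 529, 389 and 751 in UUO (556 ± 183). Uqcr11 fell by 2.04 on the log2 scale with UUO in WT (SE 0.38, adjusted p = 0.000966) and fell by 1.36 in Acot12-/- (SE 0.38, adjusted p = 0.00942). The WT groups of both were separate, while in Acot12-/- the CL replicate 2 library fell inside the UUO range for both. Without that library Uqcr10 fell by 1.42 and Uqcr11 fell by 1.88 in Acot12-/-.

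Complex IV, cytochrome c oxidase, had both the deepest fall, that of Cox7a1, and, in WT, the most members without a call. Cox4i1 (chr8:120668222-120674207, plus strand), the largest of its nuclear-encoded subunits, was at 1639.9, 1932 and 2064 FPKM in WT CL (mean 1879 ± 217) and 919, 1069 and 1143 in WT UUO (1044 ± 114). Cox4i1 in Acot12-/- was at 2649, 1147 and 3401 in CL (2399 ± 1148) and 1251, 899 and 1677 in UUO (1275 ± 389.7). In WT every UUO library was below every CL library, but in Acot12-/- CL replicate 2, at 1147 FPKM, lay among the UUO libraries. Cox4i1 differed by -0.85 (SE 0.35, adjusted p = 0.0659) in WT and -0.82 (SE 0.35, adjusted p = 0.0682) in Acot12-/- on the log2 scale and was not called in either. It was called lower in both when replicate number was a block, with adjusted p = 0.00314 and 0.00291, and without Acot12-/- CL replicate 2, with 0.00897 and 0.0015. It was also called in WT without Acot12-/- CL replicate 3 and in Acot12-/- without UUO replicate 3, with 0.0378 and 0.0435. When only the groups compared were fitted, Cox4i1 was called in WT, with 0.00114, but not in Acot12-/-. Cox5a, which sits beside Cox4i1 in the enzyme, was at 773, 840.3 and 910.2 FPKM in the WT CL libraries, with a mean of 841 ± 68.8, and at 310.4, 339.9 and 422 after UUO, with a mean of 357 ± 57.9. Cox5a in Acot12-/- mice reached 978, 967 and 1085 in CL (1010.4 ± 65.2) and 473, 304 and 597 in UUO (458 ± 147). Its libraries were separate in both genotypes, and Cox5a fell by 1.24 on the log2 scale in WT (SE 0.23, adjusted p = 0.000982) and fell by 1.19 in Acot12-/- (SE 0.23, adjusted p = 0.000957).

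Cox6c, the most abundant member of complex IV in WT CL (chr15:35925886-35938246, minus strand), was at 5076, 6008 and 5430.1 FPKM in WT CL (mean 5505 ± 470.3) and 809, 986 and 1059 in WT UUO (951 ± 129). Cox6c in Acot12-/- was at 3289, 4167 and 5031 in CL (4162 ± 871) and 1199, 938 and 1725 in UUO (1287 ± 401). All UUO libraries were below all CL libraries, and it fell by 2.54 on the log2 scale with UUO in WT (SE 0.25, adjusted p = 1.69e-05) and fell by 1.72 in Acot12-/- (SE 0.25, adjusted p = 0.000112). Cox7b was at 1175, 1289 and 1197 FPKM in the WT CL libraries, with a mean of 1220.2 ± 60.3, and at 171, 205 and 243 after UUO, with a mean of 206 ± 36.4. Cox7b in Acot12-/- mice reached 711, 1314 and 1033 in CL (1019 ± 302) and 277, 197 and 325 in UUO (266 ± 64.8), and its libraries were separate within each genotype. It fell by 2.57 on the log2 scale in WT (SE 0.25, adjusted p = 1.71e-05) and fell by 1.92 in Acot12-/- (SE 0.25, adjusted p = 5.72e-05). Cox8a was at 2024, 2100.0 and 1847 FPKM in WT CL (mean 1990.3 ± 129.7) and 614, 681 and 912 in WT UUO (736 ± 156). Cox8a in Acot12-/- was at 2438, 1121 and 2577 in CL (2045 ± 803) and 964, 621 and 1172 in UUO (919 ± 278). It was separate in WT only, and it fell by 1.45 on the log2 scale with UUO in WT (SE 0.32, adjusted p = 0.00315) and fell by 1.11 in Acot12-/- (SE 0.32, adjusted p = 0.0123). Without Acot12-/- CL replicate 2 Cox8a fell by 1.49 in Acot12-/-, and without UUO replicate 2 its adjusted p there was 0.057. Cox6a1, the widely expressed form of subunit 6A, was at 1705, 2034 and 1875 FPKM in the WT CL libraries, with a mean of 1871 ± 164, and at 656, 834 and 918 after UUO, with a mean of 803 ± 134. Cox6a1 in Acot12-/- mice reached 2569, 1326 and 2901 in CL (2265 ± 830.1) and 1047, 661 and 1341 in UUO (1016 ± 341). Acot12-/- CL replicate 2 lay just under the highest UUO library for Cox6a1, which fell by 1.23 on the log2 scale in WT (SE 0.32, adjusted p = 0.00715) and fell by 1.14 in Acot12-/- (SE 0.32, adjusted p = 0.00922). Without that library Cox6a1 fell by 1.48 in Acot12-/-. Cox6b1, a subunit on the face toward cytochrome c, was at 2651, 2491 and 2333 FPKM in WT CL (mean 2492 ± 159) and 764, 862 and 907 in WT UUO (844 ± 73.1). Cox6b1 in Acot12-/- was at 2451, 1753 and 2919 in CL (2374 ± 587) and 1034, 783 and 1288 in UUO (1035 ± 253). Its groups did not overlap, and Cox6b1 fell by 1.56 on the log2 scale with UUO in WT (SE 0.23, adjusted p = 0.000216) and fell by 1.20 in Acot12-/- (SE 0.23, adjusted p = 0.000937).

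Subunit 7A comes in a heart and muscle form, Cox7a1, and a widely expressed form, Cox7a2. Cox7a1 (chr7:30184144-30186078, plus strand, 4 exons) had the deepest fall of all 81 members in both genotypes. It was at 218, 269 and 185 FPKM in the WT CL libraries, with a mean of 224 ± 42.1, and at 19.0, 16.9 and 25.9 after UUO, with a mean of 20.6 ± 4.70. Cox7a1 in Acot12-/- mice reached 245, 132 and 265 in CL (214 ± 71.9) and 26.6, 22.9 and 45.0 in UUO (31.5 ± 11.8). The highest UUO library, at 45.0 FPKM, was far below the lowest CL library, at 132 FPKM. Cox7a1 fell by 3.39 on the log2 scale in WT (SE 0.30, adjusted p = 1.12e-05) and fell by 2.72 in Acot12-/- (SE 0.30, adjusted p = 2.05e-05), which is 10.5-fold in WT and 6.6-fold in Acot12-/-. None of 7 striated muscle markers reached the level to be tested. Only 0.26% of all genes tested had a lower fold change in WT and 0.81% in Acot12-/-. Without WT CL replicate 2, the library with fat-cell RNA, Cox7a1 fell by 3.25 in WT. Cox7a2 was at 1542, 1550.0 and 1601 FPKM in WT CL (mean 1565 ± 32.0) and 238, 267 and 327 in WT UUO (277 ± 45.7). Cox7a2 in Acot12-/- was at 997, 1141 and 1509 in CL (1216 ± 264) and 379.9, 257 and 494 in UUO (377 ± 118). Its libraries were separate too, and Cox7a2 fell by 2.50 on the log2 scale with UUO in WT (SE 0.24, adjusted p = 1.72e-05) and fell by 1.71 in Acot12-/- (SE 0.24, adjusted p = 0.000106). The fall of Cox7a1 was not tested against that of Cox7a2.

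The remaining tissue-restricted forms were low. Cox6b2 (chr7:4751792-4753094, minus strand), known as the testis form of Cox6b1, was at 11.1, 18.6 and 13.3 FPKM in the WT CL libraries, with a mean of 14.3 ± 3.87, and at 14.0, 16.5 and 19.7 after UUO, with a mean of 16.7 ± 2.89. Cox6b2 in Acot12-/- mice reached 31.9, 17.6 and 29.9 in CL (26.5 ± 7.70) and 26.0, 18.5 and 24.7 in UUO (23.1 ± 3.99). The UUO and CL libraries overlapped in both genotypes, with differences of 0.23 (SE 0.25, adjusted p = 0.473) and -0.16 (SE 0.25, adjusted p = 0.613) on the log2 scale. Cox4i2, a form known from lung and regulated by oxygen, was listed at 1.05, 1.49 and 0.555 FPKM in WT CL, 0.980, 0.584 and 1.23 in WT UUO, and in the knockout 0, 0 and 0.503 in CL and 0.442, 1.77 and 0.763 in UUO. It was called higher with UUO in Acot12-/-, by 0.74 (SE 0.26, adjusted p = 0.0299), at levels around 1 FPKM where the pseudocount of 1 understates any change, and differed by -0.06 (SE 0.26, adjusted p = 0.861) in WT. The call was lost without Acot12-/- CL replicate 1 or 2 or UUO replicate 2, with adjusted p from 0.081 to 0.138. Cox6a2, the heart and muscle form of subunit 6A, was listed at 0.348, 1.54 and 3.35 FPKM in WT CL, 0.725, 0.227 and 0.405 in WT UUO, and in the knockout 6.87, 1.46 and 2.19 in CL and 0.407, 0.257 and 1.21 in UUO. It was called lower in Acot12-/-, by 1.33 (SE 0.45, adjusted p = 0.0258), with non-overlapping groups, and not in WT, where it differed by -0.77 (SE 0.45, adjusted p = 0.176). That call was lost without Acot12-/- CL replicate 1 or UUO replicate 1 or 2, with adjusted p from 0.0698 to 0.114, and Cox6a2 was called lower in WT without WT CL replicate 1, with 0.0492. Cox8b, the heart and muscle form of subunit 8, did not reach the level for membership. It was at 14.8 FPKM in WT CL replicate 2, the library with traces of fat-cell RNA, and at 0 to 1.39 FPKM elsewhere. Striated muscle markers summed to 0.381 FPKM in that library, and the source of its Cox8b was not tested. Cox7b2 and Cox8c were at 0 in all but 3 library values, the highest of them 0.265 FPKM. Cox7a2l, at 233, 243 and 247 FPKM in WT CL, 177, 163 and 159 in WT UUO, and in the knockout 229, 184 and 287 in CL and 192, 177 and 223 in UUO, had the smallest called fall of complex IV in WT, at 0.53 (SE 0.18, adjusted p = 0.0255), and differed by -0.22 (SE 0.18, adjusted p = 0.301) in Acot12-/-.

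Complex V, ATP synthase, was called lower throughout in WT. Atp5a1 and Atp5b encode the alpha and the catalytic beta subunit of the F1 head. Atp5a1 was at 998, 957 and 1080.3 FPKM in WT CL (mean 1012 ± 62.9) and 310.0, 311 and 392 in WT UUO (338 ± 47.2). Atp5a1 in Acot12-/- was at 1221, 1018 and 1262 in CL (1167 ± 131) and 431, 265 and 409.9 in UUO (368 ± 90.4). Every UUO library was below every CL library, and Atp5a1 fell by 1.59 on the log2 scale in WT (SE 0.21, adjusted p = 9.39e-05) and fell by 1.69 in Acot12-/- (SE 0.21, adjusted p = 3.73e-05). Atp5b (chr10:128083273-128090391, plus strand) was at 1756, 1626 and 1892 FPKM in the WT CL libraries, with a mean of 1758 ± 133, and at 490.0, 541 and 654 after UUO, with a mean of 562 ± 84.0. Atp5b in Acot12-/- mice reached 2429, 1694 and 2512 in CL (2212 ± 450.4) and 691, 435 and 659.6 in UUO (595 ± 139.9). It was separate as well and fell by 1.65 on the log2 scale with UUO in WT (SE 0.23, adjusted p = 0.000135) and fell by 1.90 in Acot12-/- (SE 0.23, adjusted p = 3.25e-05). The 5 members of the head had a median of -1.65 in WT and -1.69 in Acot12-/-, and 10 others of the stalks and membrane part had medians of -1.86 and -1.45. Atp5j2, subunit f (chr5:145183698-145192062, minus strand), was at 3607, 3807 and 3326 FPKM in WT CL (mean 3579.9 ± 242) and 664, 779.9 and 753 in WT UUO (732 ± 60.5). Atp5j2 in Acot12-/- was at 2329.8, 1696 and 3632 in CL (2553 ± 987) and 850.5, 684 and 1221 in UUO (918 ± 275). Its fall in WT was the deepest of complex V: it fell by 2.29 on the log2 scale in WT (SE 0.28, adjusted p = 6.07e-05) and fell by 1.44 in Acot12-/- (SE 0.28, adjusted p = 0.000907). Atp5k, subunit e at the interface of ATP synthase dimers, was the most abundant of the complex. It was at 4877, 5664 and 3927 FPKM in the WT CL libraries, with a mean of 4823 ± 869, and at 1057, 1258 and 1020.3 after UUO, with a mean of 1111 ± 128. Atp5k in Acot12-/- mice reached 4018, 3608 and 5213 in CL (4279.6 ± 834) and 1213, 1126 and 1812 in UUO (1384 ± 374). Both were separate within each genotype, and Atp5k fell by 2.11 on the log2 scale with UUO in WT (SE 0.24, adjusted p = 3.99e-05) and fell by 1.64 in Acot12-/- (SE 0.24, adjusted p = 0.00012).

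Atp5g1, Atp5g2 and Atp5g3 encode the same mature c subunit of the proton-driven ring behind different import signals. Atp5g1 was at 559, 551 and 592 FPKM in WT CL (mean 567 ± 21.8) and 149.7, 158 and 229 in WT UUO (179 ± 43.6). Atp5g1 in Acot12-/- was at 711, 338 and 751 in CL (599.8 ± 228) and 249, 137 and 255 in UUO (214 ± 66.3). Its groups did not overlap, and it fell by 1.68 on the log2 scale in WT (SE 0.32, adjusted p = 0.00115) and fell by 1.45 in Acot12-/- (SE 0.32, adjusted p = 0.00229). Atp5g3, the most abundant, was at 2096, 2382 and 2353 FPKM in the WT CL libraries, with a mean of 2277 ± 158, and at 689, 737 and 933 after UUO, with a mean of 786 ± 129.7. Atp5g3 in Acot12-/- mice reached 2472, 2273 and 3089.9 in CL (2612 ± 426) and 1058, 645 and 1234 in UUO (979 ± 302). It was separate too and fell by 1.54 on the log2 scale with UUO in WT (SE 0.24, adjusted p = 0.000338) and fell by 1.45 in Acot12-/- (SE 0.24, adjusted p = 0.000355). Atp5g2 (chr15:102662864-102672352, minus strand) had the smallest fold changes of these genes. It was at 614, 665 and 572 FPKM in WT CL (mean 617 ± 46.3) and 373, 375 and 384 in WT UUO (377 ± 5.60). Atp5g2 in Acot12-/- was at 633, 377 and 722 in CL (577 ± 179) and 414, 385 and 468 in UUO (422 ± 42.2). In WT every UUO library was below every CL library and it fell by 0.71 (SE 0.22, adjusted p = 0.0195) on the log2 scale, the smallest fall of complex V. That call was lost without WT CL replicate 1 or 2 or WT UUO replicate 1 or 2, with adjusted p from 0.0529 to 0.0636. After scaling to the same total FPKM Atp5g2 was at -0.09 in WT, with adjusted p = 0.654. In Acot12-/- the CL replicate 2 library, at 377 FPKM, was below all 3 UUO libraries, and the difference was -0.40 (SE 0.22, adjusted p = 0.144), with adjusted p = 0.00178 without that library. Many of these short subunit genes, Ndufa4, Cox6c and the Atp5g genes among them, have close copies elsewhere in the genome. How reads shared with such copies were assigned is not given in the sources used here, so their levels are uncertain to that extent.

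**Figure D2:**
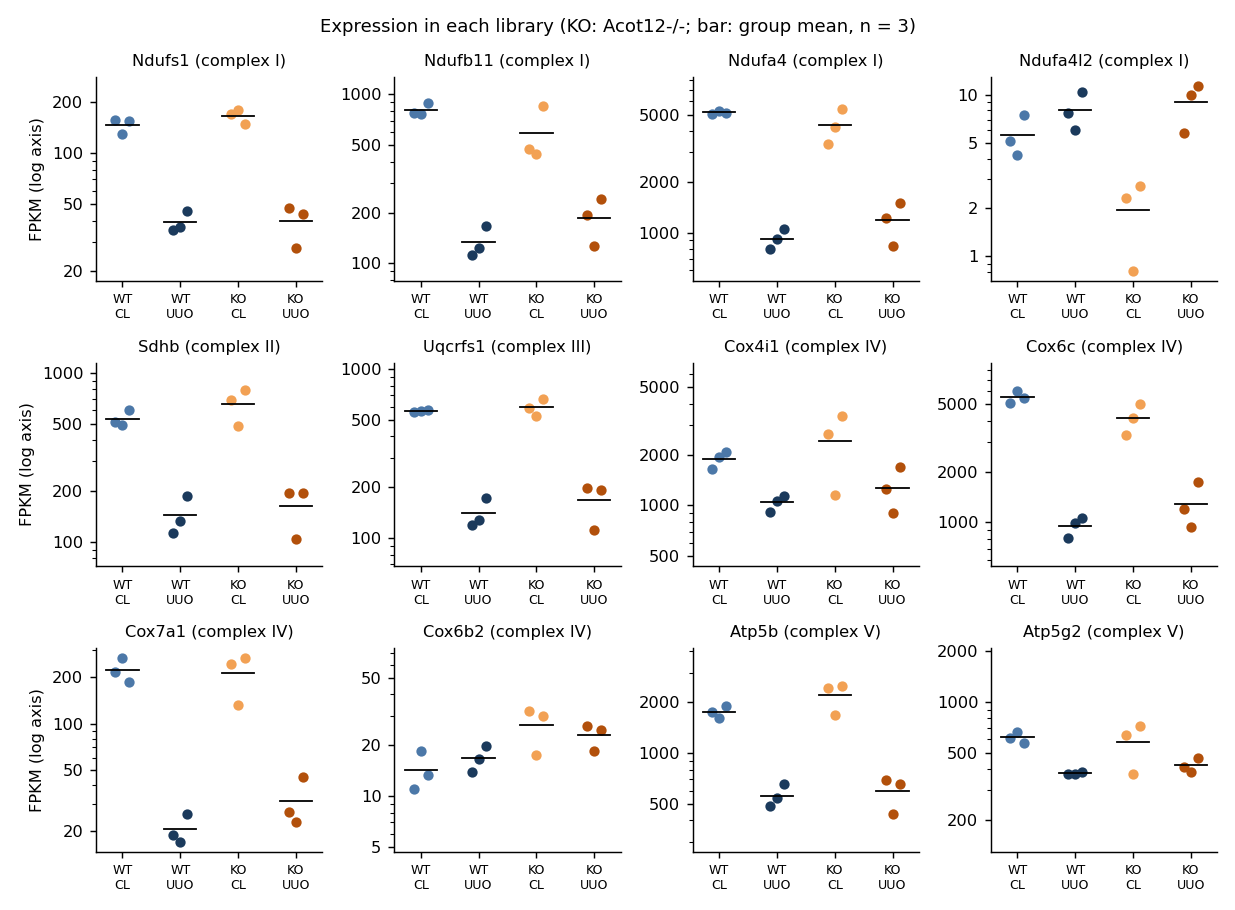
FPKM (log axis) of 12 members in each of the 12 libraries, 3 per group, with KO for Acot12-/-; each point is a library and the bar is the group mean. Cox7a1 drops from 185 to 269 FPKM in WT CL to 16.9 to 25.9 FPKM in WT UUO, whereas Cox6b2 and Ndufa4l2 overlap between these groups.

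Shares within a subunit family do not depend on how a library was scaled. Cox7a1 made up 12.5% ± 2.21 (SD, n = 3) of the summed FPKM of Cox7a1 and Cox7a2 in WT CL and 6.89% ± 0.813 in WT UUO, and 15.0% ± 4.69 and 7.69% ± 0.993 in Acot12-/-. Cox6b2 made up 0.575% of the Cox6b pair in WT CL and 1.94% in WT UUO, and 1.10% and 2.22% in Acot12-/-. The share of Ndufa4l2 beside Ndufa4 was 0.110% and 0.865% in WT and 0.0458% and 0.799% in Acot12-/-. For these 3 families the UUO and CL libraries did not overlap in either genotype, so Cox7a1 took a lower share, and Cox6b2 and Ndufa4l2 a higher one, in every obstructed kidney. Atp5g2 likewise took 17.8% of the Atp5g sum in WT CL and 28.4% in WT UUO, and 15.0% and 27.0% in Acot12-/-, without overlap. Atp5g3 went from 65.7% to 58.4% in WT and from 69.5% to 59.9% in Acot12-/-, again without overlap. Atp5g1 went from 16.4% to 13.2% in WT without overlap, and from 15.5% to 13.1% in Acot12-/- with overlap. Among the low forms, shares of Cox4i2 in WT and of Cox6a2 in both genotypes overlapped between UUO and CL. In Acot12-/- the Cox4i2 share did not overlap, at 0 to 0.0148% in CL and 0.0353 to 0.196% in UUO. A share also moves when the other forms of its family change. In WT, Cox6b1 and Ndufa4 were called lower, while the FPKM of Cox6b2 and Ndufa4l2 overlapped between UUO and CL. Atp5g2 itself was called lower in WT, and Ndufa4l2 was called higher in Acot12-/-. These shares describe the libraries and were not tested.

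**Figure D3:**
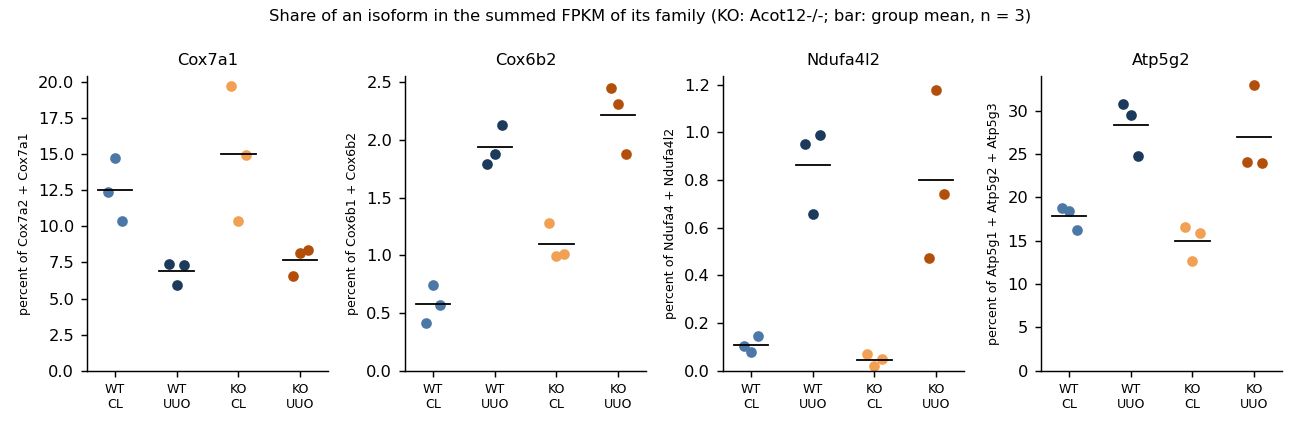
Share of a subunit family's summed FPKM, in percent, taken by Cox7a1, Cox6b2, Ndufa4l2 and Atp5g2 in each library (points) with group means (bars), 3 libraries per group. In both genotypes the share of Cox7a1 is lower in all UUO than in all CL libraries and the shares of Cox6b2, Ndufa4l2 and Atp5g2 are higher.

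The region around the start site of 64 members was read from RefSeq (GRCm38.p6, 250 bases before to 50 after the start) because the members moved together. A set of 6 short strings was searched on both strands, of which the ETS-type one ends in the AAG that begins the YY1 and receptor strings, and 31 of the 64 members held at least 1 of them. Shares are of genes with a window, since some have several start sites. The palindrome of nuclear respiratory factor NRF1, GCGCA followed by its reverse complement TGCGC, was found in 5 members, Atp5g2, Atp5k, Cox6a1, Ndufa11 and Uqcrc1, or 7.8% against 1.1% of all genes and 2.2% of genes tested. The ETS-type string CCGGAAG, of the kind bound by GABP, was in 25.0% of members, 9.9% of all and 19.2% of tested genes. AAGATGGCG, of YY1, was in 10.9%, 1.6% and 3.4%, and AAGGTCA, of the estrogen-related receptors, in 12.5%, 5.4% and 4.2%. TATAAA was in 7.8% of members, 15.7% of all and 9.1% of tested genes, and GCACGTG, a hypoxia-type string, in 1.6%, 3.0% and 4.1%. Members with the NRF1 string had a median fold change of -1.23 in WT and -1.14 in Acot12-/-, and the other members -1.68 and -1.40. For the receptor string these medians were -2.03 and -1.46 against -1.61 and -1.32, and for TATAAA -1.14 and -0.65 against -1.68 and -1.40. For the ETS-type string they were -1.76 and -1.35 against -1.61 and -1.39, and for the YY1 string -1.76 and -1.44 against -1.62 and -1.345. The hypoxia-type string, in 1 member, had -1.54 and -1.45 against -1.65 and -1.36. All are a description, and fold change also went with GC content, as given below. Of the 4 windows below, the Cox7a pair is shown for the deepest fall and its common counterpart, Atp5g2 for the smallest fall of complex V and Atp5j2 for the deepest. Capitals mark the NRF1 string in Atp5g2 and the YY1 string in Atp5j2, and each runs 5′ to 3′ on the strand of its gene: chr7:30183921-30184220 (plus), chr9:79759804-79760103 (minus), chr15:102670998-102671297 (minus) and chr5:145191492-145191791 (minus).
Cox7a1: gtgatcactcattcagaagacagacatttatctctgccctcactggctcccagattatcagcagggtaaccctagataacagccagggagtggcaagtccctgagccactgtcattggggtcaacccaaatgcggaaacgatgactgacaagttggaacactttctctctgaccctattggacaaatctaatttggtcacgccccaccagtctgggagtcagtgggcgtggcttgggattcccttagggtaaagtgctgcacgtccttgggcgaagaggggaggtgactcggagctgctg
Cox7a2: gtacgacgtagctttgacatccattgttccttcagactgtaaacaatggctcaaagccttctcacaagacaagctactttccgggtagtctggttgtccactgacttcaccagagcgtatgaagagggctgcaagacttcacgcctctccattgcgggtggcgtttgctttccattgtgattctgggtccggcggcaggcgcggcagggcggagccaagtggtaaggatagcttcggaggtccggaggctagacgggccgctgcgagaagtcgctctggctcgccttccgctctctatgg
Atp5g2: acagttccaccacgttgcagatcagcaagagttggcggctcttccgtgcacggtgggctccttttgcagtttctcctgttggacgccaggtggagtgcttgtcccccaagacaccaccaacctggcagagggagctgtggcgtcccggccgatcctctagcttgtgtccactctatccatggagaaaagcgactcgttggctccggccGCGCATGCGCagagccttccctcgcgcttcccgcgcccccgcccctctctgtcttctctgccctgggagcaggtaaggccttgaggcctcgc
Atp5j2: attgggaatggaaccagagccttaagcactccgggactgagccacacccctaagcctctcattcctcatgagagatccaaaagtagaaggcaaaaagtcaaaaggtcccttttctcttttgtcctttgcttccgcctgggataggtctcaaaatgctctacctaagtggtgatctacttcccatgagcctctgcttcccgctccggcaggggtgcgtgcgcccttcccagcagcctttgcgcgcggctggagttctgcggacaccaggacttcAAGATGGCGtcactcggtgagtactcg
None of the 6 strings was found in the windows of Cox7a1 and Cox7a2, which says only that these letters are not there.

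The second comparison asked the same of obstruction in Acot12-/- kidneys. The complexes were again lower. Of 81 members, 69 were called lower and 2 higher, Ndufa4l2 and Cox4i2, against 53.7% called over all genes tested, 27.2% lower and 26.6% higher. Lower were 31 members of complex I, 4 of complex II, 8 of complex III, 11 of complex IV and 15 of complex V. The median member fell by 1.36 on the log2 scale, or 2.57-fold, and the median of all genes tested was -0.01. The deepest falls were Cox7a1 at -2.72 in complex IV, Ndufc1 at -2.10 in complex I, Atp5c1 at -2.10 in complex V, Sdhb at -2.03 in complex II and Uqcrfs1 at -1.86 in complex III. In 59 members the UUO libraries were all below the CL libraries, against 27.6% of all genes tested. The 10 members without a call were Ndufa11, Ndufa2, Ndufa7, Ndufb7, Ndufs7, Cox4i1, Cox6b2, Cox7a2l, Atp5d and Atp5g2. Scaled to the same total FPKM, 63 members were lower and 2 higher. The median of all genes was then 0.40, and 13.2% of all genes tested were lower and 44.1% higher. Calls over all genes then went from 50.5% to 23% lower.

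The Acot12-/- CL replicate 2 library bears on these counts. Without it, 79 members were called in Acot12-/-, and without Acot12-/- UUO replicate 2, 62. In the CL replicate 2 library the members' shortfall followed their base composition: those above the members' median GC content of 51.4% differed from replicates 1 and 3 by a median of -0.86, with 39 of 40 lower, and those at or below it by a median of -0.12, with 24 of 40 lower. The lowest were Atp5d at -1.79, Ndufs7 at -1.77 and Uqcrc1 at -1.56, while Uqcrb was at 0.92. Spearman's rho with GC content was -0.66 over 80 members and -0.78 over 12767 genes, a description over genes of a single library, which are not independent replicates. What set this library apart was not tested.

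**Figure D4:**
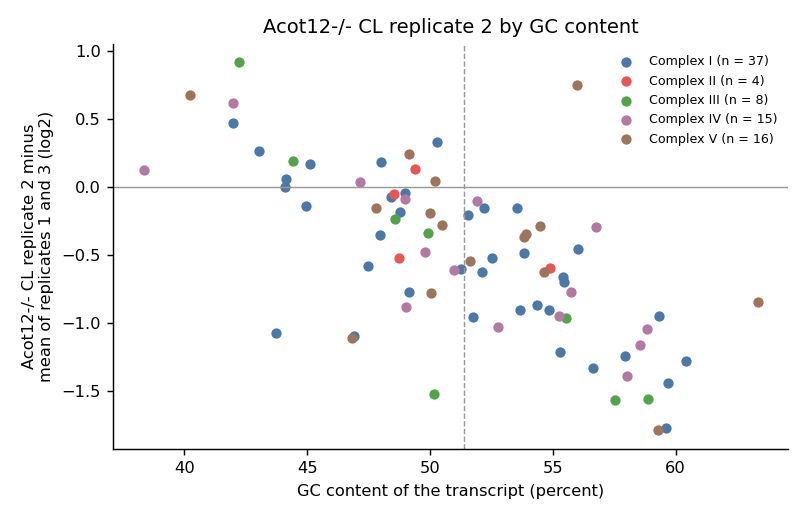
Difference of Acot12-/- CL replicate 2 from the mean of replicates 1 and 3 on the log2(FPKM + 1) scale (vertical) against GC content of the transcript in percent (horizontal), for 80 members by complex. GC-rich members such as Atp5d, at -1.79, sit lowest, and Spearman's rho is -0.66.

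Both genotypes called the same 68 members lower. A further 7 were called lower in WT alone and Cox6a2 in Acot12-/- alone, and 5 in neither. The fold changes of the 81 members in the 2 genotypes, which share no library, had Pearson's r of 0.818 and Spearman's rho of 0.74, and r of 0.76 and rho of 0.716 over 77 members without the low-expressed Ndufa4l2, Cox4i2, Cox6a2 and Cox6b2. Each member has the same GC content in both comparisons, and its fold change went with it. Spearman's rho across members was 0.332 in WT and 0.462 in Acot12-/-, so the coefficients between genotypes are a description. Pairing the kidneys by replicate number, the median member was at -1.83, -1.66 and -1.46 in UUO against CL in WT and at -1.31, -1.52 and -1.33 in Acot12-/-, with every pair in the same direction.

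**Figure D5:**
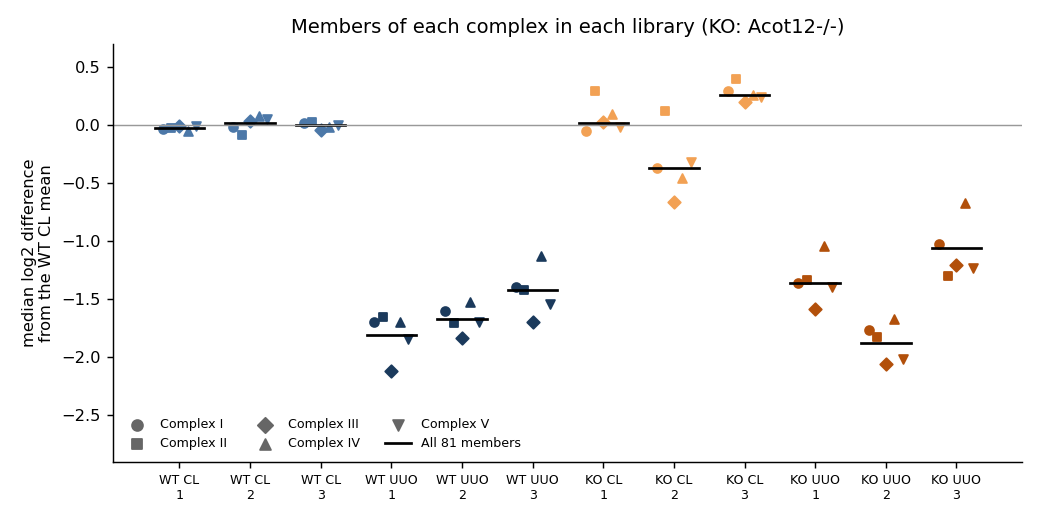
Median log2 difference of the members of each complex from the WT CL mean, for each of the 12 libraries. Over all members the WT UUO libraries sit at -1.81, -1.67 and -1.42 and the Acot12-/- UUO libraries at -1.36, -1.88 and -1.06, and Acot12-/- CL replicate 2, at -0.37, is the lowest CL library.

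The third comparison asked whether the obstructed kidneys of the genotypes differed. None of the 81 members was called between Acot12-/- UUO and WT UUO by limma, against 0.0151% of all genes tested, and 0 had an unadjusted p under 0.05, against 2.36%. The fold change was above 0 for 78 of 81 members, with a median of 0.25. That median was 0.08 without Acot12-/- UUO replicate 3 and 0.48 without Acot12-/- UUO replicate 2, and 0.10 after scaling to the same total FPKM. Over all genes tested, 6692 of 13243 were above 0. Only Cox7a2l and Atp5g2 had all 3 Acot12-/- libraries above all 3 WT libraries, against 5.5% of all genes tested, and 0 members had them all below, against 6.48%. Atp5g2 was at 414, 385 and 468 FPKM against 373, 375 and 384, and differed by 0.16 (SE 0.22, adjusted p = 0.9999). Cox7a1 differed by 0.55 (SE 0.30, adjusted p = 0.9999) and Ndufa4l2 by 0.13 (SE 0.31, adjusted p = 0.9999). Across 80 members the difference had a Spearman's rho of -0.484 with transcript length, against -0.325 over 12767 genes, the shorter transcripts being higher in Acot12-/- UUO, which is given as a description.

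In the CL kidneys a single member was called. Ndufa4l2 was at 5.19, 4.23 and 7.53 FPKM in WT CL and 2.28, 0.806 and 2.70 in Acot12-/- CL, without overlap, and fell by 1.22 (SE 0.31, adjusted p = 0.0453) on the log2 scale. Over all genes tested 4.48% were called, 3.36% lower. Over the other fits its adjusted p ran from 0.0342 to 0.157 and was under 0.05 in 9 of 20. Among the fits without a single library it was under 0.05 only without Acot12-/- CL replicate 2 or 3 or Acot12-/- UUO replicate 1. Markers of several cell types differed beside it. Of the endothelial markers, 5 of 7 were called lower in Acot12-/- CL, and their summed FPKM was 88.4 to 152 in WT CL and 30.3 to 59.0 in Acot12-/- CL. Markers of pericytes and smooth muscle went from 86.4 to 104 FPKM to 44.1 to 56.2 FPKM, with 3 of 9 called lower. Lymphocyte markers went from 8.14 to 14.0 FPKM in WT CL to 2.65 to 3.18 FPKM, with 3 of 5 called lower, macrophage markers from 106 to 119 FPKM to 40.2 to 84.7 FPKM, with 2 of 7, and fibroblast markers from 122 to 153 FPKM to 33.6 to 96.9 FPKM, with 1 of 6. Proximal tubule markers were above 0 in 11 of 11, with 0 called. The part of these markers in the result was not tested. The members as a whole had a median of -0.06. All 3 Acot12-/- CL libraries lay below all 3 of WT CL in 8 members and above them in 5, which were Sdha, Sdhc, Uqcrc2, Cox5a and Atp5c1, against 9.73% and 8.6% of all genes tested. Without Acot12-/- CL replicate 2 the median was 0.13 and 5 members were called, Ndufa4l2 lower and Ndufa10, Sdhc, Uqcrc1 and Cox6b2 higher. With all libraries Sdhc differed by 0.47 (SE 0.21, adjusted p = 0.287) and Cox6b2 by 0.83 (SE 0.25, adjusted p = 0.087).

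The interaction, which asks whether the UUO change itself differed between genotypes, called 0 members by limma, against 0.106% of all genes tested, and 8 had an unadjusted p under 0.05, against 10.5%. The UUO fold change was nearer to 0 in Acot12-/- in 64 of 81 members, and the median interaction was 0.29 on the log2 scale, which was 0.09 without Acot12-/- CL replicate 2 and 0.52 without Acot12-/- UUO replicate 2, and 0.16 after scaling to the same total FPKM. Ndufa4l2 had the smallest p, with a difference of 1.35 (SE 0.44, adjusted p = 0.241). For Ndufb11 it was 0.96 (SE 0.41, adjusted p = 0.431), for Cox6c 0.82 (SE 0.35, adjusted p = 0.434) and for Cox7a2 0.79 (SE 0.34, adjusted p = 0.45). A shallower fall in Acot12-/- was thus not detected for any member beyond the spread between libraries.

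The proteins that build and serve the complexes were counted from lists. Among all genes tested, 23.9% were called lower and 23.6% higher in WT, and 27.2% and 26.6% in Acot12-/-. Assembly factors of complex I were called lower in 13 of 14 in WT and 14 of 14 in Acot12-/-, with medians of -1.03 and -1.15 and Ndufaf4 at -1.62 in WT. Of 4 complex II factors, 4 and 3 were lower, Sdhaf4 at -1.74. Of 6 complex III factors, 2 and 4 were lower, the 2 in WT being Uqcc1 at -0.98 and Lyrm7 at -0.79, and none in WT after scaling to the same total. Of 23 complex IV factors, 16 and 15 were lower, among them the copper-handling Coa6 at -2.16 and Cox16 at -1.62, and of 3 complex V factors, 3 and 2, Tmem70 at -1.66. No assembly factor was called higher in either genotype. The medians over complexes II to V ran from -0.50 in complex III to -1.24 in complex V in WT.

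A list of cytochrome c, the electron transfer flavoproteins and mostly enzymes of ubiquinone synthesis was called lower in 14 of 16 in WT and 13 of 16 in Acot12-/-. The shares of all genes tested called lower, here and for the lists that follow, were 23.9% and 27.2%. Cycs, which is cytochrome c, was at 419, 394 and 453 FPKM in WT CL and 70.4, 72.7 and 95.4 in WT UUO, at -2.41 on the log2 scale. Coq9, needed to make ubiquinone, was at -2.12. Genes that move ATP and phosphate across the inner membrane were lower in 8 and 9 of 10. The adenine nucleotide carrier Slc25a5 was at 1085, 995 and 997 FPKM in WT CL and 144, 160.1 and 216 in WT UUO, and fell by 2.58 (adjusted p = 8.23e-06). Of 13 genes that maintain and transcribe mitochondrial DNA, 7 were lower in each genotype, Tefm at -1.31 in WT, and of 77 mitochondrial ribosomal proteins, 53 and 52. After scaling to the same total FPKM, these last 2 lists in WT had 2 higher beside 2 lower and 5 higher beside 19 lower. With this scaling the list around Cycs had 8 of 16 lower in WT and the ATP and phosphate list 1 higher beside 4 lower of 10. Of all genes tested, 50.9% were then called higher in WT and 9.65% lower.

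Transcription regulators of mitochondrial genes moved in both directions. Of 15, 7 were called lower and 2 higher in each genotype. The shares of all genes tested were 23.9% lower and 23.6% higher in WT, and 27.2% and 26.6% in Acot12-/-. After scaling to the same total 3 were lower and 6 higher in WT, against 9.65% and 50.9% of all genes tested. Ppargc1a, the coactivator PGC-1 alpha, was at 16.8, 14.0 and 13.2 FPKM in WT CL and 5.11, 4.82 and 5.32 in WT UUO, at -1.36, with no overlap. Its relative Pprc1 was called higher, at 0.99 in WT. Epas1, a hypoxia-inducible factor, was called higher in Acot12-/-, at 0.99, and was at 0.19 in WT, with adjusted p = 0.261 for the interaction.

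Markers of the cell types in the cortex also changed with UUO, in differing directions. The shares of all genes tested were 23.9% lower and 23.6% higher in WT, and 27.2% and 26.6% in Acot12-/-. Proximal tubule markers were called lower in 10 of 11 in WT and 11 of 11 in Acot12-/-, with medians of -1.91 and -2.51, and their summed FPKM went from 2559 to 4060 in WT CL to 511 to 1047 in WT UUO, and from 3067 to 6398 to 327 to 1359 in Acot12-/-. Thick ascending limb markers were lower in 4 of 5 in both, and distal and collecting tubule markers in 7 and 5 of 8. Injured tubule markers were higher in 5 of 5 in both, with a summed FPKM of 10.2 to 52.3 in WT CL and 1281 to 1319 in WT UUO. Macrophage markers were higher in 6 and 7 of 7, lymphocyte markers in 4 of 5 in both, and fibroblast markers in 4 and 6 of 6. Podocyte markers had 1 higher and 1 lower of 5 in both. Endothelial markers had 1 higher and 4 lower of 7 in WT and 4 higher in Acot12-/-, and pericyte and smooth muscle markers 5 higher and 2 lower of 9 in WT and 6 higher and 1 lower in Acot12-/-. The part of these shifts in the fall of the subunits was not tested.

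The members were spread over the genome and varied in transcript length. The 80 members found in the GENCODE vM21 annotation lie on 19 chromosomes, with no member on chromosome 14 or Y, and their transcripts are 371 to 4715 bases long with a median of 870. The spread between replicates differed by group, since the median SD of a member on the log2 scale was 0.109 in WT CL and 0.195 in WT UUO, against 0.373 and 0.425 for the CL and UUO libraries of the knockout. Over all genes tested the same medians were 0.142, 0.112, 0.338 and 0.157.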

How the data were processed

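Total RNA of kidney cortex, extracted with Trizol per the labels and RNAiso Plus per the methods, was made into libraries with the NEBNext Ultra II Directional kit and sequenced on an Illumina NovaSeq. The authors deposited 1 table per library with FPKM for 23183 gene symbols, made by a service provider. The unit was read from the values and the study's wording. The submitters' processing notes name mm10 and edgeR without a role, and the aligner, the annotation and the handling of strand are not given in the sources used here. Groups were taken from the sample labels, 3 libraries in each of 4.

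Genes with at least 1 FPKM in at least 3 libraries were kept, leaving out 58 genes listed at 0 beside at least 10 FPKM in the same group (none of them a member), which left 13243. A single 4-group model was fitted to log2(FPKM + 1) in limma 3.58.1 under R 4.3.3 with a trended prior variance, and p-values were adjusted by Benjamini-Hochberg over all 13243 genes. A fold change is on this log2(FPKM + 1) scale, which understates changes of low genes. The code was tested on simulated data. The members and all gene and marker lists were chosen with earlier results of these data known. Subunits were named in full where they are core subunits, isoform pairs, the most abundant or extreme of a complex, or called in a genotype comparison. A gene that this rule covers is not reported here. Cox7a2l, Ndufa8, Ndufc1, Atp5c1, Uqcrb and the other members named outside this rule were chosen after their values were seen.

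Deviations of same-numbered CL and UUO libraries from their group means had correlations over genes of 0.134, 0.364 and 0.335 in WT. In Acot12-/- these were 0.322, 0.186 and 0.318. Between different numbers the highest was 0.139 in WT and -0.075 in Acot12-/-. UUO libraries of different genotypes, which cannot share a mouse, reached 0.392 for the same number and 0.451 for different numbers. Such correlations cannot establish pairs, so reading the numbers as pairing the kidneys is an assumption. The labels do not say what a number stands for. Values with replicate number as a block are given where they change a call. Coordinates and lengths are from GENCODE vM21 (GRCm38), in which 80 of 81 members were found, and start-site windows from RefSeq. Fragments per library were estimated from the steps between low FPKM values, on the assumption that the FPKM were not also scaled between libraries. Precision is limited by the 3 libraries of each group. Alternatives were a pseudocount of 0.1, no filter, scaling to the same total FPKM, median-ratio size factors, the block, fitting only the groups compared, no trend, keeping the 58 genes, and leaving out each library.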

Additional observations from a re-analysis of the deposited data

How the results depend on the processing

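The number of members called in WT UUO against WT CL ran from 67 to 77 over all alternatives, and from 71 to 77 when a library was left out. In Acot12-/- it ran from 60, with only the groups compared, to 79, and from 62 to 79 when a library was left out. The members called between Acot12-/- CL and WT CL, 1 as reported, were 0 without the filter, 0 with only the groups compared and 0 to 5 when a library was left out, 5 of them without Acot12-/- CL replicate 2. Between the UUO groups and for the interaction, 0 members were called under every alternative run, and the interaction was not fitted with only the groups compared. Ndufa4l2 in CL fell by 0.90 to 1.42 when a library was left out.

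With replicate number as a block, 77 members were called in WT, adding Ndufs7 and Cox4i1, and 77 in Acot12-/-, adding Ndufa11, Ndufa2, Ndufb7, Ndufs7, Cox4i1 and Atp5d. The block left the CL comparison at 1 call and the UUO comparison and the interaction at 0, and 22 members had an unadjusted p under 0.05 for the interaction, against 13.2% of all genes tested.

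Some uncalled changes turned direction: Cox4i2 in WT was at 0.24 after scaling to the same total FPKM and between -0.24 and 0.10 when a library was left out, with 0.10 without WT CL replicate 2 and 0.07 without WT UUO replicate 2. With the same scaling Atp5g2 was at 0.088 and Cox6b2 at 0.31 in Acot12-/-. The cause was not tested beyond the scaling itself. Among fits of a single member, 1260 kept direction and side of the threshold, 43 lost the call, 11 gained it and 5 turned direction. With only the groups compared, Ndufv1, Uqcr10, Uqcrc1, Cox6a1, Cox8a and Cox4i2 lost their calls in Acot12-/-, with adjusted p from 0.0501 to 0.0598. Atp5g2 kept its call in WT in 15 of 20 alternatives, Cox4i1 gained one in 4 of 20 in WT and 3 of 20 in Acot12-/-, and Cox4i2 and Cox6a2 kept theirs in Acot12-/- in 16 and 17 of 20. With 3 libraries a group and an estimated 11100000 to 20300000 fragments each, changes of members near 1 FPKM are the least certain.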
